A study of Zea mays with 6 samples.

Results

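Histones, cyclins and DNA replication genes of maize roots were examined by collecting, from the annotation of the authors' table, a probe set titled after the D-type cyclin cycD2 and every probe set whose title or target description named histone H1, H2A, H2B, H3 or H4, a cyclin, cell division, proliferating cell nuclear antigen, DNA polymerase, replication or retinoblastoma. Histone-modifying enzymes, cyclin-like folds and tubulins were left out. The rule found 64 of 12255 annotated probe sets, and these fell into 36 transcript clusters, the groups of sequences from which the array was designed. The members were 38 core histone probe sets (3 for H2A, 13 for H2B, 20 for H3 and 2 for H4) and 7 in the histone H1 class. That class holds linker histones and the single myb histone smh4. A further 8 were for cyclins or a cyclin-dependent kinase subunit, 2 for retinoblastoma-related proteins and 3 for proliferating cell nuclear antigen. The rest were 3 for DNA polymerase or other replication proteins and 3 for cell division proteins. Of the 64, 14 had a gene symbol, 13 carried a note of cross-hybridisation and 8 had probes noted on the opposite strand of a transcript, and those without a symbol were named from a deposited mRNA or from similarity to a known protein. A probe set measures a transcript as a fluorescence signal (an intensity on a linear scale), and 1 cluster can carry several probe sets, so the 64 are not 64 independent genes. Among the named members, cross-hybridisation was noted for 8 probes each of his1a, Zm.13443.1.A1_at (H2A) and Zm.14497.4.A1_at (H2B). It was noted for 4 probes of Zm.4750.1.S1_at, 3 of LOC542738 and 1 each of Zm.1141.1.A1_at, pcna2 and Zm.14513.4.S1_x_at.

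The intercropped group was maize cv. Nongda108 grown in a greenhouse together with peanut cv. Luhua14 (3 arrays, IM1, IM2 and IM3), and the monocropped group was the same maize cultivar grown alone (3 arrays, M1, M2 and M3). Both groups shared a calcareous sandy soil with the same basal fertilizers, and roots were taken at the reproductive stage. Whether the 3 samples of a group were separate plants, pots or repeats of 1 RNA is not stated in the labels. The p-values therefore cover only the spread of these samples, and that spread could be technical. The comparison asks how the transcripts of the root differ when maize grows beside peanut. The 3 arrays per group limit the precision: a log2 difference had a standard error of 0.18 in the median probe set, and signals had already been scaled by the authors, so that a shift of all transcripts cannot be seen. The median signal of an array was between 135 and 142. Of the root markers, 9 probe sets were measured, with a summed signal of 2976, 2964 and 2315 in IM1 to IM3, against 2993, 2531 and 3734 in M1 to M3. The iron transporter ys1 of the root surface and the root cap gene RCP1 were above a signal of 100 on every array, but some other root markers were not. Among these, rcph2 had 393, 233 and 135 in intercropped roots, against 167, 121 and 76.5 in monocropped roots. Its log2 difference was 1.00, while those of ys1 and RCP1 were −0.37 and −0.27. Of the 9 root markers, 2 were higher and 7 lower. Markers of green leaf (21 probe sets, median log2 difference −0.13) and seed (12 probe sets, median −0.07) were also present in the signal. Of the 21 green leaf probe sets 6 were higher and 15 lower. At an unadjusted p under 0.05, 1 was higher and 5 were lower, against 5.6% and 5.51% of all probe sets tested. Most of the 5 were probe sets of a single gene, pdk1, so they are not 5 independent genes. None of the marker probe sets passed the test.

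Plant cells enter a division cycle when D-type cyclins, with their kinase partners, phosphorylate the retinoblastoma-related protein and free E2F factors, which switch on the genes of DNA synthesis. In S phase the replication-coupled core histones are made in bulk to package the new DNA, and proliferating cell nuclear antigen (PCNA) forms the ring that holds the DNA polymerase on its template. A-type and B-type cyclins then carry the cell through G2 and mitosis. In roots these transcripts are concentrated in the meristem of the tip and in lateral root primordia, while histone variants such as H3.3 and H2A.Z are also laid down outside S phase and are found in cells that no longer divide.

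No member passed the test between intercropped and monocropped roots. The test was limma's moderated test on log2 signals with Benjamini-Hochberg adjustment over 13116 probe sets, those with a signal of at least 50 on at least 3 arrays. All 64 members were among these. At an adjusted p under 0.05, the count called was 0 of 64 members against 0% of all probe sets tested. The lowest adjusted p of a member was 0.201, and in the authors' deposited table no member (0 of 64) had a q-value under 10%, against 28 probe sets of the whole table. At an unadjusted p under 0.05, 1 member was higher and 3 were lower in intercropped roots, against 5.6% higher and 5.51% lower of all probe sets tested. The 3 intercropped arrays were all above the 3 monocropped arrays in 2 members, where the background was 8.29%, and all below them in 5 members, where it was 8.69%. These shares were no larger than those of the array as a whole.

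By the log2 difference alone, most core histones were lower and most of the other members higher in intercropped roots. Of the 64 members, 24 were higher and 40 lower, where 51.9% of all probe sets tested were higher. The median log2 difference was −0.12 over the members and 0.01 over all probe sets tested. Among the core histones 32 of 38 were lower, with a median of −0.17. Among the 26 others 18 were higher, with a median of 0.11. Taking 1 probe set per cluster left 11 of 13 core histone clusters lower, but 18 of 36 clusters higher over all members, with a median of 0.01. These counts were not tested, and the count for the core histones moved with single arrays: 34 of 38 were lower without IM1, 25 without IM2 and 22 without IM3. In whole roots, fewer dividing cells and less of a transcript per cell cannot be told apart.

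**Figure D1:**
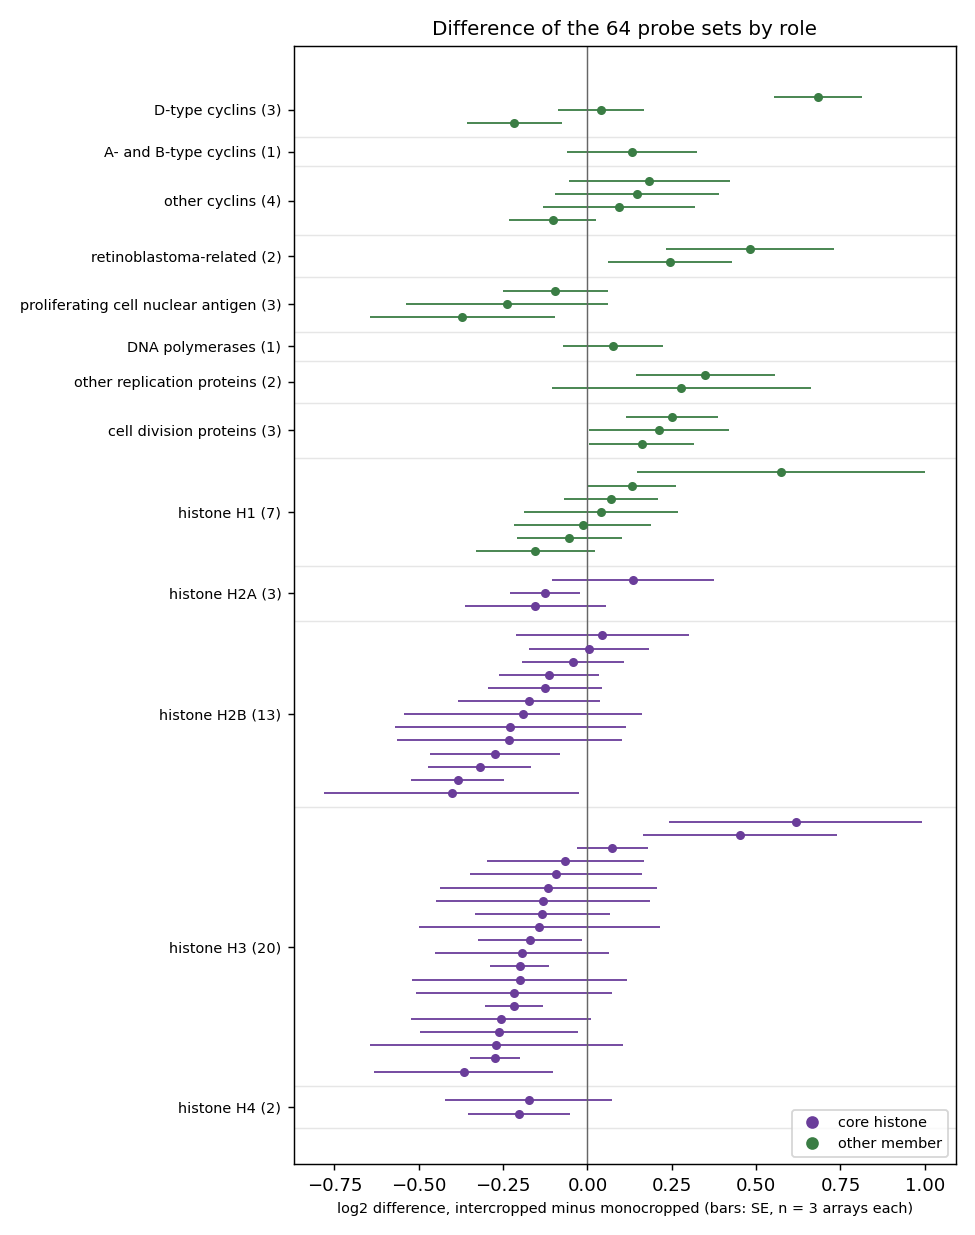
Log2 difference (intercropped minus monocropped) of each of the 64 probe sets, with its standard error from limma, grouped by role, and the number of probe sets in brackets. Core histones (purple) lie mostly left of 0, with a median of −0.17, the other members (green) mostly right of it, with a median of 0.11, and the error bars of many probe sets cross 0.

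D-type cyclins couple growth signals to the start of the cycle, and 1 of their 3 probe sets separated the groups. This probe set, titled cycD2 by the array's design and called here the design-titled cycD2 probe set, had a signal of 422, 393 and 355 in intercropped roots, against 233, 236 and 259 in monocropped roots. The groups did not overlap, and the spread within each was small. The mean was 390 ± 33.6 in intercropped roots and 243 ± 14.6 in monocropped roots (SD, n = 3 each), a difference of 0.68 ± 0.13 on the log2 scale (limma's standard error, as for every log2 difference of a probe set that follows), or 1.6-fold. It ranked 67 of 13116 by its p of 0.00106 and had an adjusted p of 0.201 in limma's test, so it did not pass. An exact two-sided permutation test over the 6 arrays gave p = 0.1, the smallest that 3 against 3 allows. The probe set was put on the list by name with earlier results of these data known. In the authors' deposited table the same probe set had a score of 4.10, a fold change of 1.61 and a q-value of 10.5%, and 40 probe sets had a q-value no higher. The log2 difference was between 0.62 and 0.75 when each array was left out in turn.

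The other probe set of the same cluster, Zm.1141.1.A1_at, gave 314, 353 and 318 in intercropped roots, against 298, 341 and 319 in monocropped roots. Here the groups overlapped and the difference was 0.04 ± 0.13 (limma, adjusted p = 0.934). The annotation places 15 probes of this set on the cycD2 reference mRNA. For the design-titled set it places none there, while 11 of its probes matched a deposited mRNA on the opposite strand, so that which transcript and which strand it measures is not settled by the annotation. The 2 probe sets differed in their response by 0.64 ± 0.11 on the log2 scale (SE over arrays, exact two-sided permutation p = 0.1, the smallest possible). As the design-titled set was chosen with earlier results known, this contrast is a description. The probe set of cycD4, another D-type cyclin, went the other way at 246, 314 and 292 in intercropped roots, against 343, 312 and 331 in monocropped roots. Its highest intercropped array, IM2, reached into the monocropped range, and the difference was −0.22 ± 0.14 (limma, adjusted p = 0.624).

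**Figure D2:**
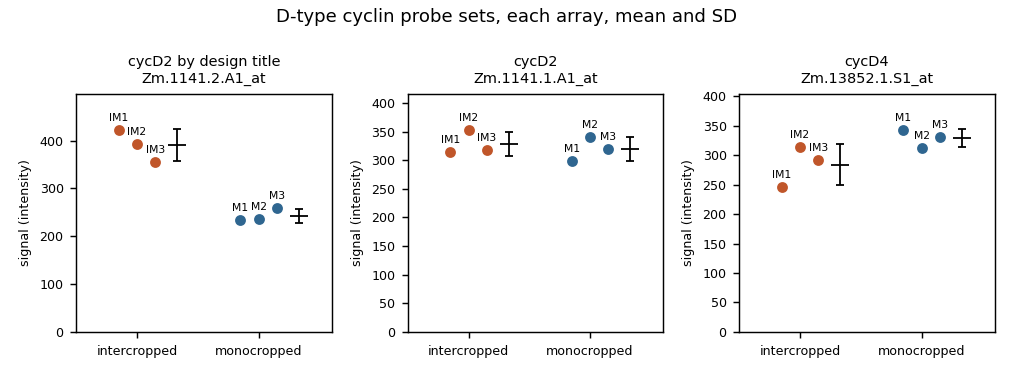
Signal of the 3 D-type cyclin probe sets on each array, with group means and SD as black bars, intercropped left of monocropped. The first probe set separates the groups (355 to 422 against 233 to 259), while the second, which matches the cycD2 reference mRNA, and the cycD4 probe set overlap.

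The retinoblastoma-related proteins restrain entry into S phase until D-type cyclin kinases act on them. RRB2a had a signal of 128, 158 and 84.2 in intercropped roots, against 75.6, 84.5 and 98.2 in monocropped roots. IM1 and IM2 stood above every monocropped array and IM3 lay within their range. The difference was 0.48 ± 0.25 (limma, adjusted p = 0.535). RRB1 had the same order among the intercropped arrays, at 273, 352 and 226 in intercropped roots, against 217, 239 and 251 in monocropped roots, and a difference of 0.24 ± 0.18 (limma, adjusted p = 0.678). Without IM2 the differences were 0.28 for RRB2a and 0.077 for RRB1, and without IM3 they were 0.73 and 0.40.

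For the other cyclins the groups overlapped in every probe set. The A-type cyclin-like probe set Zm.18756.1.A1_at was at 59.9, 66.8 and 68.9 in intercropped roots, against 48.7, 58.4 and 73.4 in monocropped roots, with a difference of 0.13 ± 0.19. Zm.4750.1.S1_at, titled cyclin IaZm, had 117, 108 and 71.8 in intercropped roots, against 97.7, 68.2 and 93.1 in monocropped roots, a difference of 0.18 ± 0.24. The putative cyclin Zm.17699.1.S1_at lay between 116 and 134 on all arrays (−0.10 ± 0.13). The signal of Zm.8492.1.A1_at, similar to the regulatory subunit that docks on cyclin-dependent kinases, was 287, 199 and 239 in intercropped roots, against 201, 186 and 299 in monocropped roots, with the highest value in M3 and a difference of 0.09 ± 0.23. The mitotic cyclin cyc3, outside the rule for named members and picked after its values were seen, was at 67.4, 52.4 and 39.5 in intercropped roots, against 55.0, 39.5 and 47.5 in monocropped roots and close to the filter value of 50. Adjusted p-values of these 5 in limma's test were between 0.818 and 0.914.

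PCNA, the sliding clamp of the replication fork, was lower by the log2 difference in all 3 of its probe sets, without passing the test in any. The signal of pcna1 was 279, 126 and 175 in intercropped roots, against 245, 241 and 225 in monocropped roots. The monocropped arrays were nearly equal, while the intercropped arrays spread on both sides of them, with IM1 highest. The difference was −0.37 ± 0.27 (limma, adjusted p = 0.668), and it was −0.67 without IM1 and −0.10 without IM2. In pcna2 IM1 was again highest, with 339, 180.3 and 144 in intercropped roots, against 250.4, 228 and 253 in monocropped roots and a difference of −0.24 ± 0.30. Zm.531.2.A1_at, a further probe set of the pcna2 cluster, had 732, 724 and 533 in intercropped roots, against 723, 649 and 733 in monocropped roots with IM3 below the other arrays (−0.09 ± 0.16). Without IM3 the differences of pcna2 and of Zm.531.2.A1_at were 0.02 and 0.05, so their direction rested on that array.

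The other replication proteins were higher by their means. Replication origin activator 2, named LOC542738 in the annotation and a relative of the MCM helicase subunits that open the DNA at origins, had 203, 136 and 70.4 in intercropped roots, against 131, 80.1 and 103 in monocropped roots. The intercropped arrays alone spanned the whole monocropped range, and the difference was 0.28 ± 0.38 (limma, adjusted p = 0.838); without IM1 it was −0.07. Zm.10283.1.A1_at, similar to replication protein A1 of Arabidopsis, which coats single-stranded DNA, had 88.3, 72.4 and 54.7 in intercropped roots, against 58.7, 56.2 and 51.3 in monocropped roots, with IM1 and IM2 above all monocropped arrays and a difference of 0.35 ± 0.21, or 0.19 without IM1. Zm.15761.1.A1_at, weakly similar to human DNA polymerase lambda, a repair enzyme, stayed between 57.8 and 67.9 (0.08 ± 0.15).

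Of the 3 cell division probe sets, Zm.10385.1.A1_at separated the groups. It is weakly similar to a cell division control protein of Arabidopsis, and its signal was 229, 207 and 188 in intercropped roots, against 170.4, 169 and 184 in monocropped roots. The lowest intercropped array lay just above the highest monocropped one, and the difference was 0.25 ± 0.14 (limma, adjusted p = 0.555). Zm.7603.1.A1_a_at overlapped, at 128, 156 and 171 in intercropped roots, against 127, 139 and 139 in monocropped roots (0.16 ± 0.16). Zm.13147.1.A1_at, the third, was at 97.3 to 153 in intercropped roots and 97.6 to 127 in monocropped roots (0.21 ± 0.21).

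**Figure D3:**
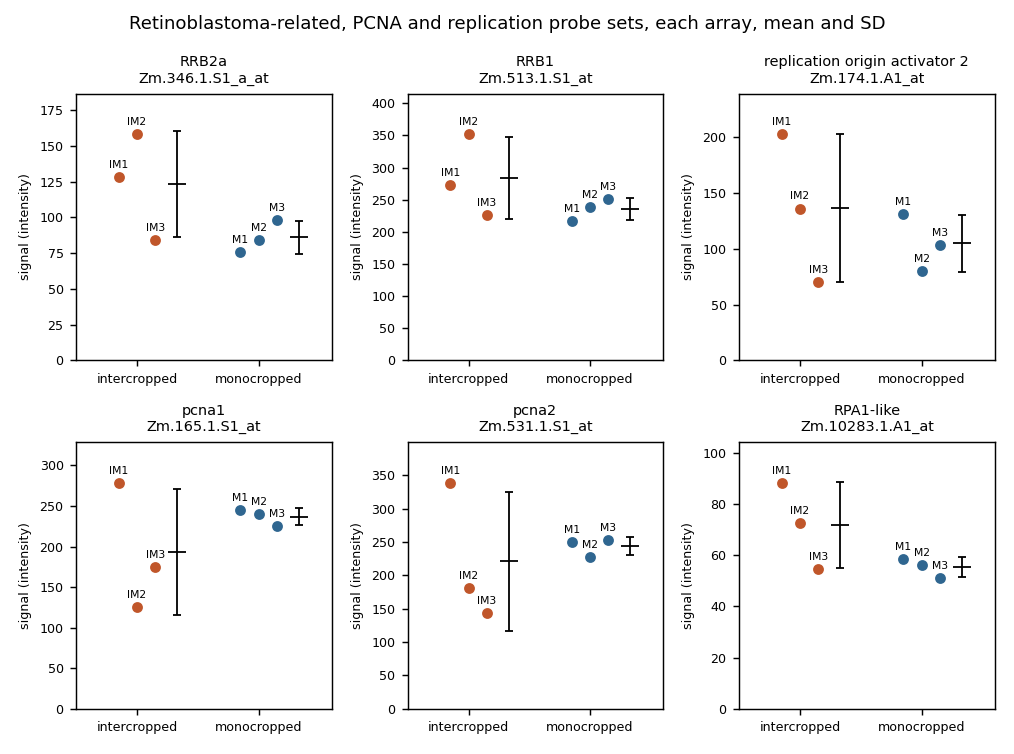
Signal of 2 retinoblastoma-related, 2 PCNA and 2 replication probe sets on each array, with group means and SD as black bars, intercropped left of monocropped. In each panel the 3 intercropped arrays spread more widely than the monocropped ones, for example 126 to 279 against 225 to 245 for pcna1, and in every panel the groups overlap.

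Histone H3 was the largest class, with 20 probe sets, of which 17 were lower and 3 higher in intercropped roots. The median of their log2 differences was −0.18. The steadiest was Zm.14513.6.A1_a_at, strongly similar to the replacement variant H3.3 of Arabidopsis, with 2876, 2975 and 2972 in intercropped roots, against 3433, 3547 and 3689.7 in monocropped roots. The arrays of each group lay close together and the groups did not overlap. The difference was −0.27 ± 0.07, with a p of 0.00725 and an adjusted p of 0.287 in limma's test, and a q-value of 22.4% in the authors' deposited table. Zm.14513.4.S1_x_at of the same cluster had 1903, 2060.3 and 2001 in intercropped roots, against 2362, 2191 and 2383 in monocropped roots (−0.22 ± 0.09). Zm.14513.4.S1_at, which shares its target with it, had 1841, 1998 and 1959 in intercropped roots, against 2299.9, 2132 and 2233 in monocropped roots (−0.20 ± 0.09). The groups did not overlap in either, and the adjusted p-values were 0.423 and 0.453 in limma's test. For these last 2 the annotation notes 15 probes on the opposite strand of a transcript.

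The other probe sets with an H3.3-like title did not repeat this. Which H3 they measure is not settled by the annotation. Zm.14513.7.A1_at, Zm.14513.2.A1_x_at and Zm.14513.2.A1_at share a UniGene entry (a public grouping of transcripts) with Zm.16263.1.A1_at, which is titled by similarity to maize histone H3. The 6 further probe sets of the cluster Zm.14513 were lower by 0.09 to 0.26 on the log2 scale, but their groups overlapped and each of them was higher in IM1 than in IM2 and IM3. Zm.14513.2.A1_at, picked after its values were seen as the one with the widest spread, had 1845, 1199 and 906 in intercropped roots, against 1883, 983 and 1645 in monocropped roots. IM1, M1 and M3 were high and IM2, IM3 and M2 low, so the order did not follow cropping. Zm.8152.1.S1_at, H3.3-like by its title and from another cluster, was likewise picked after its values were seen and was nearly flat, at 879, 916 and 904 in intercropped roots, against 838, 812 and 917 in monocropped roots (0.07 ± 0.11). The 8 probe sets titled only by similarity to maize histone H3 were all lower, with differences between −0.37 and −0.07 and overlapping groups in each.

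Centromeric histone H3, which marks the centromere and is loaded in dividing cells, was higher by the log2 difference in both of its probe sets. It falls outside the rule for named members and was picked after its values were seen. Zm.861.2.A1_a_at had 144, 109.8 and 53.9 in intercropped roots, against 70.3, 46.0 and 72.9 in monocropped roots, with IM1 and IM2 above all monocropped arrays and IM3 among them. The difference was 0.62 ± 0.37, with an adjusted p of 0.605 in limma's test. Zm.861.2.S1_at had 62.7, 57.8 and 39.7 in intercropped roots, against 54.3, 29.2 and 35.4 in monocropped roots (0.45 ± 0.29). For both sets the annotation notes 15 probes on the opposite strand of a transcript, for the first set beside 15 on the cenH3 reference mRNA, and several signals of the second lie under 50.

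Histone H2B was represented by 13 probe sets of a single cluster, Zm.14497, 11 of them lower and 2 higher. The median of their log2 differences was −0.19, and without IM2 it was −0.00058. Zm.14497.9.S1_at had 971, 713 and 859 in intercropped roots, against 1041, 1101 and 1154 in monocropped roots. Each intercropped array lay below the lowest monocropped one, and IM2 was the lowest. The difference was −0.38 ± 0.14, with a p of 0.0264 and an adjusted p of 0.384 in limma's test. Zm.14497.4.A1_at overlapped through IM1, with 925, 709 and 749 in intercropped roots, against 886, 944 and 1143 in monocropped roots (−0.32 ± 0.15). Zm.14497.5.S1_at had 1275, 1005 and 1634 in intercropped roots, against 1161, 1530.4 and 1691 in monocropped roots (−0.17 ± 0.21), with IM1 and IM3 within the monocropped range. The remaining 10 H2B probe sets had differences between −0.40 and 0.04, with overlapping groups in each. Near-identical H2B copies share sequence, and these probe sets may read several of them.

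Histone H2A was measured by 3 probe sets. Zm.3240.1.A1_at, moderately similar to the variant H2A.F/Z of Arabidopsis, had 966, 974 and 923 in intercropped roots, against 1111, 976 and 1039.8 in monocropped roots. The groups did not overlap, but IM2 and M2 were nearly equal, and the difference was −0.13 ± 0.10 (limma, adjusted p = 0.711). Zm.13443.1.A1_at, titled histone H2A, overlapped, at 2119, 1361 and 1308 in intercropped roots, against 1828, 1449 and 1967 in monocropped roots (−0.16 ± 0.21). A second probe set of its cluster, Zm.13443.2.S1_at, had a difference of 0.13 ± 0.24.

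Histone H4, the most conserved of the core histones, had 2 probe sets with overlapping groups. Zm.16724.1.A1_at was at 258, 232 and 289.9 in intercropped roots, against 334, 265 and 299 in monocropped roots (−0.20 ± 0.15). Zm.15826.1.A1_at was at 606, 537 and 364 in intercropped roots, against 637, 417 and 642 in monocropped roots (−0.17 ± 0.25), and without IM3 its difference was 0.04.

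The core histones spread more within groups than the array as a whole, with a median SD within groups of 0.35 on the log2 scale, against 0.21 over all probe sets tested. IM1 was the highest intercropped array in 27 of 38 core histone probe sets (71.1%), against 30.9% of all probe sets tested, and M2 was the lowest monocropped array in 27 of 38 (71.1%), against 33.7%. Both held in 21 of 38 (55.3%), against 13.2% of all probe sets tested. Among the 47 other cell cycle probe sets described at the end, IM1 was the highest intercropped array in 23 and M2 the lowest monocropped array in 29. Counted once per cluster, IM1 was highest in 7 of 13 and M2 lowest in 10 of 13. Relative to each probe set's mean over the 6 arrays, the median core histone stood at 0.27 in IM1, −0.25 in IM2 and −0.29 in IM3 on the log2 scale, against 0.15 in M1, −0.17 in M2 and 0.25 in M3. The signal of IM1 over the mean of IM2 and IM3 had a median of 1.31 and reached 2.52. The probe sets share clusters and can cross-hybridise, so these counts are a description.

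The core histones also differed in how steady they were within a group. In 23 of 38 (60.5%) the SD within groups was above 0.3 on the log2 scale, against 27.6% of all probe sets tested. Not all of these followed the array pattern: in Zm.14497.16.S1_s_at, for example, IM1 was the lowest intercropped array. In 5 of 38 (13.2%) the SD was under 0.1, a share near the 10.5% of all probe sets tested. These were 4 of the probe sets with an H3.3-like title, Zm.14513.6.A1_a_at, Zm.14513.4.S1_x_at, Zm.14513.4.S1_at and Zm.8152.1.S1_at, and the H2A.F/Z-like Zm.3240.1.A1_at. The remaining probe sets with an H3.3-like title, all of the cluster Zm.14513, had wide SDs of 0.38 to 0.51. Of the 5 with an SD under 0.1, 4 were among the 5 members whose intercropped arrays were all below the monocropped ones. Over all probe sets tested, whatever their spread, that share was 8.69%. All of the 4 but Zm.3240.1.A1_at come from the single cluster Zm.14513, so they are not independent. For the 5 steady probe sets, the signal of IM1 over the mean of IM2 and IM3 was between 0.93 and 1.02. For the other 33 its median was 1.53. The limits of 0.1 and 0.3 were set after the values were seen, and a small spread by itself makes non-overlap easier. PCNA and cenH3 had IM1 highest too. In histone H1 the order was the other way, with IM1 the lowest intercropped array in 5 of 7 probe sets. Among all 26 members that are not core histones, IM1 was the highest intercropped array in 12 (46.2%) and the lowest in 11 (42.3%). Over all probe sets tested these shares were 30.9% and 38.8%.

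IM1 also stood apart in 1 of the controls for RNA quality. The actin 3′ control had a signal of 1411 in IM1, against 581 to 875 on the other 5 arrays, and its ratio of 3′ to 5′ signal was 4.39 in IM1, against 2.07 to 2.48. For ubiquitin the ratio was between 1.30 and 1.52, and for Gapdh between 1.87 and 2.30, with IM1 not the highest for Gapdh. For ef1a it was 3.23 in IM1, 2.98 in IM2 and 3.95 in IM3, against 3.19, 3.74 and 3.73 in M1 to M3, with IM3 the highest. The spiked control bioB was at 1116 in M1, against 124 to 421 elsewhere. The summed signal of green leaf markers was highest in M2. It was 3818, 3088 and 3750 in IM1 to IM3, against 3507, 5280 and 3799 in M1 to M3. Much of the excess in M2 lay in probe sets of a single gene, pdk1, a photosynthetic enzyme of C4 leaves. A pdk1 probe set picked after its values were seen had 115, 98.3 and 81.9 in intercropped roots, against 135, 698 and 225 in monocropped roots. Most green leaf probe sets of other genes were not highest in M2. The part of these controls and markers in the histone pattern was not tested. Without IM1 the median difference of the core histones was −0.32 and that of histone H3 −0.42, without IM3 they were −0.04 and 0.00015, and no member was called either way. Root markers moved with the last arrays of each group as well: their median, relative to the mean over 6 arrays, was 0.02 in IM1, 0.16 in IM2 and −0.59 in IM3, against 0.12 in M1, 0.00 in M2 and 0.39 in M3. Of the 9, 2 were higher and 7 lower in intercropped roots, and their part in the histone differences was not tested.

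**Figure D4:**
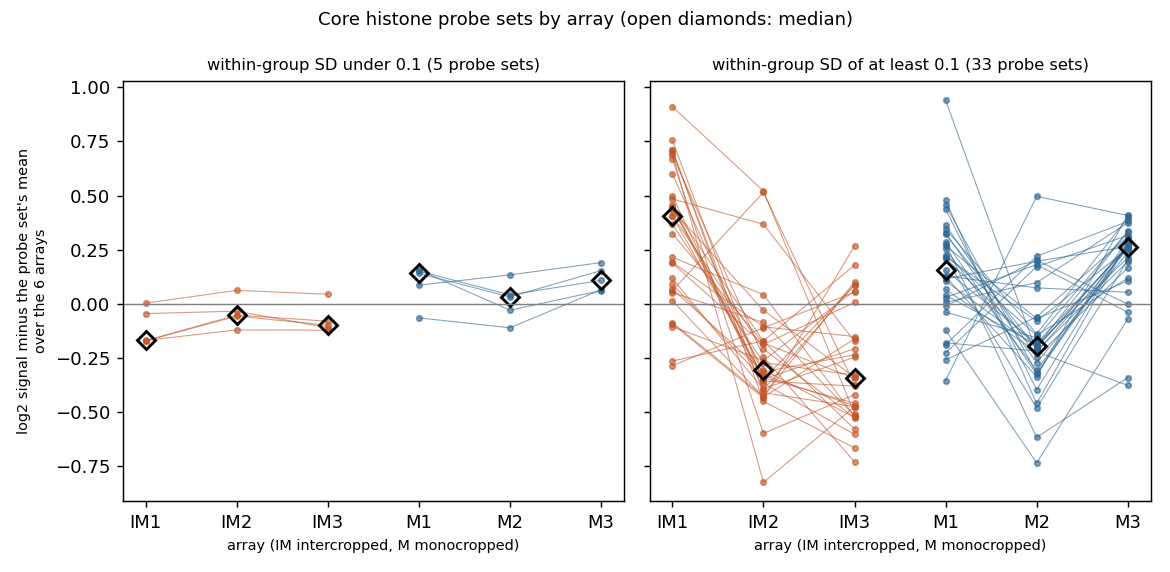
Log2 signal of the 38 core histone probe sets on each array, relative to the probe set's own mean over the 6 arrays, with intercropped arrays (orange) left of monocropped arrays (blue) and medians as open diamonds. The 5 steady probe sets at the left change little within a group, while in the other 33 at the right the medians of IM1, M1 and M3 are high and those of IM2, IM3 and M2 low.

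The probe sets of the H1 class, for linker histones that bind between nucleosomes and for the single myb histone smh4, showed no common direction. Among them 4 were higher and 3 lower, around a median of 0.04 on the log2 scale. Zm.5737.1.S1_at, weakly similar to histone H1.2 of Arabidopsis, had 883, 1530.2 and 2461 in intercropped roots, against 604, 1202 and 1389.8 in monocropped roots. The spread within each group was wider than the distance between them, at 0.57 ± 0.43 (limma, adjusted p = 0.672), and 14 of its probes are noted on the opposite strand of a transcript. The difference was 0.95 without IM1 and 0.21 without IM3 or without M1. smh4, a single myb histone of a family that binds telomeric DNA, had 353, 371 and 391 in intercropped roots, against 302, 357 and 359.9 in monocropped roots (0.13 ± 0.13), and 12 of its probes are noted on the opposite strand of a transcript. his1a, a gene of linker histone H1, was at 2215, 2270.5 and 2857 in intercropped roots, against 2089.7, 2915 and 2635 in monocropped roots (−0.05 ± 0.16). The other 4 H1 probe sets, hon101 among them, had differences between −0.15 and 0.07.

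Other genes of the cell cycle in the same table, 47 probe sets for cyclin-dependent kinases, kinesins, nucleosome assembly factors, high mobility group proteins and the like, were mostly on the higher side in intercropped roots. Of these 47, 36 were higher and 11 lower by the log2 difference, where 51.9% of all probe sets tested were higher. The median was 0.11, and none passed the test. Some genes, such as mad2 and cdc2, have several probe sets in the list, all of them higher, so the 47 are not 47 independent genes. At an unadjusted p under 0.05, 2 were higher and 0 lower, against 5.6% higher and 5.51% lower of all probe sets tested. kin16, a kinesin-like motor protein, had 84.9, 88.4 and 51.0 in intercropped roots, against 47.5, 33.9 and 50.0 in monocropped roots, 0.75 ± 0.27 on the log2 scale (limma, adjusted p = 0.383). IM3 and M3 were nearly equal, though the groups did not overlap. KIN6, a kinesin heavy chain, had 634, 609 and 530.4 in intercropped roots, against 573, 310 and 345 in monocropped roots, 0.58 ± 0.24, with M1 inside the intercropped range. nfa103, a nucleosome assembly factor that carries histones, had 521, 611 and 525 in intercropped roots, against 504, 432 and 407 in monocropped roots, 0.30 ± 0.14. The lowest p among the lower ones belonged to kin2, at −0.28 ± 0.15, a kinesin-like Zm.14937.1.A1_at was at −0.17 ± 0.24 and the high mobility group gene hmgi/y at −0.09 ± 0.10. The difference between this list and the core histones was not tested.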

How the data were processed

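Total RNA of maize roots, extracted with TRIzol, was hybridised as biotinylated cRNA to single-colour Affymetrix maize arrays, per the labels' protocols. The deposited series table holds the authors' intensity of each of 17734 probe sets on a linear scale, and the authors' filtered table holds log2 of the same values. Per the submitters' processing notes, GCOS 1.4 was used. How probes were summarised and to what target arrays were scaled is not given in the sources used here. The authors' SAM table of 12255 probe sets gives, per the file headers, a score, a linear ratio (fold change, intercropped over monocropped) and, as percent, a q-value. One block of that table heads its intensities with other array numbers, but all values equal the series table (largest difference 0).

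Of the probe sets, 179 controls were left out. Signals under 1 were raised to 1, and their log2 was used without another normalization. The 13116 probe sets with a signal of at least 50 on at least 3 arrays were tested with limma 3.58.1 in R 4.3.3 (lmFit, eBayes with trend=TRUE, two-sided, Benjamini-Hochberg over all of them, called at an adjusted p under 0.05). The procedure was tested on simulated data. Differences are intercropped minus monocropped, with limma's standard error. Groups came from the treatment label and array numbers from the titles.

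The members and lists were chosen with earlier results of these data known. Named members are the design-titled cycD2 probe set, those whose groups do not overlap, and per role the highest mean signal and the 2 smallest p, 30 in all, and from the 47 other cell cycle probe sets the 3 smallest p in each direction. Alternatives were the normalization, the filter, a pseudocount, the prior trend, the array number as a block, leaving out each array, 1 probe set per cluster, no cross-hybridising names and members matched by title alone; counts and medians of the core histones were added after seeing the data. Promoter motifs and sequences were not used here.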

Additional observations from a re-analysis of the deposited data

How the results depend on the processing

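The count of members called was 0 under each of the alternatives run. Leaving out each array in turn gave 0 to 34 called probe sets over the whole array, with 34 without IM1, and log2 of signal plus 32 gave 1. The design-titled cycD2 probe set kept its direction and stayed short of the threshold in every setting, at 0.62 to 0.75 on the log2 scale without 1 array. With the array number as a replicate block its adjusted p was 0.28, and 0 probe sets were called. Same-numbered arrays correlated at 0.27, −0.07 and −0.004 in their deviations from the group means, and all pairs lay between −0.30 and 0.33. With 3 arrays per group the deviations are tied to each other, so these values cannot tell whether equal numbers mark a shared batch. The median of the members ranged from −0.17 to 0.01 and the count higher from 20 to 35 of 64 without 1 array, and matching by title alone gave 0.15 and 10 of 13. For the core histones the median ranged from −0.32 to −0.04 and the count lower from 22 to 34 without 1 array. With 1 probe set per cluster 11 of 13 were lower, and by title alone 1 of 3, with a median of 0.45, 2 of the 3 being cenH3. Of 402 values of named members under alternatives, 390 kept their direction, and the 12 that turned all left out an array. Their ranges without 1 array were −0.012 to 0.089 for Zm.1141.1.A1_at (below 0 without IM2 or M1), −0.0087 to 0.29 for Zm.18756.1.A1_at (without M1) and −0.039 to 0.30 for Zm.8492.1.A1_at (without IM1 or M2). They were −0.60 to 0.022 for pcna2 and −0.17 to 0.055 for Zm.531.2.A1_at (above 0 without IM3), and −0.072 to 0.69 for replication origin activator 2 (below 0 without IM1). Among the histones they were −0.19 to 0.051 for his1a (above 0 without IM1 or M2), −0.35 to 0.00033 for Zm.14497.5.S1_at (without IM2) and −0.38 to 0.042 for Zm.15826.1.A1_at (without IM3). The cause was not tested. Signals near 50 limit what can be read of cyc3, cenH3 and the polymerase probe set.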
